A study of Rattus norvegicus with 6 samples.

Results

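Heat shock proteins and co-chaperones are the cell's protein folding machinery, and 67 of their genes were followed here through 3 states of the rat heart. Members were the genes whose array symbol begins with Hspa, Hspb, Hsp90, Dnaja, Dnajb or Dnajc, together with Hspd1, Hspe1, Hsph1, Bag3 and Hsf1. They are 67 of the 15037 genes with a symbol on the array, and each had 1 row. Hspa1b, Dnaja1 and Dnajb1 had no named row. Whole-heart RNA had been hybridised to 6 Clariom S Rat arrays, 2 for each of the groups that the labels call normal, TAC and TAC-R. The animals were male Sprague-Dawley rats aged 10 weeks. TAC is transverse aortic constriction, here a silk ligature tied over a 21-gauge blunt needle that narrows the aortic arch and so loads the left ventricle, and in TAC-R the constriction had been released. Sham surgery for the normal group, the length of constriction or release, and whether the arrays of a group were different animals are not stated in the labels. The p-values therefore rest on a spread between arrays that may be technical.

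Hsp70 proteins bind unfolded stretches of a client protein and release them in a cycle driven by ATP. J-domain proteins, named Dnaja, Dnajb and Dnajc, deliver clients and start that cycle, and Hsp110 proteins and Bag3 end it by exchanging the nucleotide. Small heat shock proteins hold unfolding proteins without using ATP, Hsp90 finishes the folding of kinases and receptors, and the Hspd1-Hspe1 chaperonin folds proteins inside mitochondria. Many of these genes are switched on by heat shock factor 1 (Hsf1) or, in the endoplasmic reticulum (ER), by the unfolded protein response (UPR). Heart muscle is rich in small heat shock proteins, and Hspb8 together with Bag3 clears damaged proteins from the sarcomere under mechanical load.

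The promoters show which members carry these regulatory letters next to their start. RefSeq promoter windows of 300 bases on GRCr8, most of them upstream of the annotated start, were at hand for 54 members. They were searched on both strands for a pair of heat shock units (GAANNTTC or TTCNNGAA), for 3 alternating units in a row, which contain 2 overlapping pairs, and for the ER stress element, CCAAT followed by 9 bases and CCACG. Of the 54 windows, 15 (27.8%) held a pair, against 15.9% of all 33469 promoters. Runs of 3 units stood in 4 windows (7.41%, against 0.798% of all promoters), those of Hspa8, Hspd1, Hspe1 and Hsph1. The ER stress element stood in 3 (5.56%, against 0.0657%), those of Hspa5, Hsp90b1 and Dnajc3. A match is a description of the letters and not evidence of binding. The 6 windows printed here were chosen because they hold the runs, the pairs of the small heat shock protein Hspb1, or the ER stress element. Capitals mark the matched letters, each sequence reads 5′ to 3′ along the gene, and the position, strand and gene are as follows. Hspa8 is at chr8:50080264-50080563 on the plus strand, Hspe1 at chr9:64084077-64084376 on the plus strand, Hsph1 at chr12:10427118-10427417 on the plus strand, Hspb1 at chr12:26432252-26432551 on the minus strand, Hspa5 at chr3:38452766-38453065 on the plus strand and Hsp90b1 at chr7:23012244-23012543 on the minus strand.
Hspa8: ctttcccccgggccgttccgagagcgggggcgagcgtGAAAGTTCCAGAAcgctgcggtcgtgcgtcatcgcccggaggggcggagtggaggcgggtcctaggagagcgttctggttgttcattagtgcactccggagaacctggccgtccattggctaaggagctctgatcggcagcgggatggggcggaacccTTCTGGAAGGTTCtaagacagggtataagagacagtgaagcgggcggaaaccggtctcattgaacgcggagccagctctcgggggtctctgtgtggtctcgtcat
Hspe1: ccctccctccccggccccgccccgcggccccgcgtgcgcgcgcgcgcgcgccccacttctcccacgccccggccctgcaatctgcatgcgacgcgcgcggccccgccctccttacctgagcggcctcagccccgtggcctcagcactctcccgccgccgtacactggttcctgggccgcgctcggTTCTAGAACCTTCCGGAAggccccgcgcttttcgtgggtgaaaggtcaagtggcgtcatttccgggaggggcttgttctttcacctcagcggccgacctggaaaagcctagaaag
Hsph1: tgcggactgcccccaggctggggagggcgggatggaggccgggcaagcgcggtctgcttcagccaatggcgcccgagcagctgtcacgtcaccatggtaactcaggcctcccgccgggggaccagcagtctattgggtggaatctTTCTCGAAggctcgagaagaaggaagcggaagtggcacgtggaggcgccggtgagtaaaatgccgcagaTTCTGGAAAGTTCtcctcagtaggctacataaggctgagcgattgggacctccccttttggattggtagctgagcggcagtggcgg
Hspb1: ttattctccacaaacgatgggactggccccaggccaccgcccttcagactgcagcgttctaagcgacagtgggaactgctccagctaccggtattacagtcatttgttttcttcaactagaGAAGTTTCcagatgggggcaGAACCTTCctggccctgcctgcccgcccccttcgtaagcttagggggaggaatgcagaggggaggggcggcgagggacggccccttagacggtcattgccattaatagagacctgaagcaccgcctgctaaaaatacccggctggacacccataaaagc
Hspa5: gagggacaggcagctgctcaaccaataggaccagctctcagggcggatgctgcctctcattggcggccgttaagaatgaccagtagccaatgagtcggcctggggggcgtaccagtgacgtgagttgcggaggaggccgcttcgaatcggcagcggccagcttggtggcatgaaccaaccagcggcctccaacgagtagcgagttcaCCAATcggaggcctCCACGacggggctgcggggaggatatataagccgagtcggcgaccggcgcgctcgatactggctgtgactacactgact
Hsp90b1: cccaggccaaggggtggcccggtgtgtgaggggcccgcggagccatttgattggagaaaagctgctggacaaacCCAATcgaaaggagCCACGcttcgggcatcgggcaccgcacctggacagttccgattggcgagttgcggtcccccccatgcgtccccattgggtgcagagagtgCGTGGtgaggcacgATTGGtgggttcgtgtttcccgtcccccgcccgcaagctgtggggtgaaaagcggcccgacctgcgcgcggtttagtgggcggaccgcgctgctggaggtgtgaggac

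Counted from the annotated start, Hspa8, the constitutive cytosolic Hsp70, had runs at -213 to -201 and at -55 to -43. Hsph1, the Hsp110 nucleotide exchange factor, had a run at -36 to -24 and a separate pair at -105 to -98. Hspe1 had 3 overlapping pairs between -65 and -48. The windows of Hspd1 and Hspe1, the subunits of the mitochondrial chaperonin, shared 211 bases on opposite strands, and all 3 pairs of Hspe1 were the same letters as the 3 pairs of Hspd1. Hspb1 had separate pairs at -129 to -122 and -109 to -102, Hsp90b1 had the ER stress element at -176 to -158 and -72 to -54, and Hspa5 had it at -43 to -25.

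**Figure D1:**
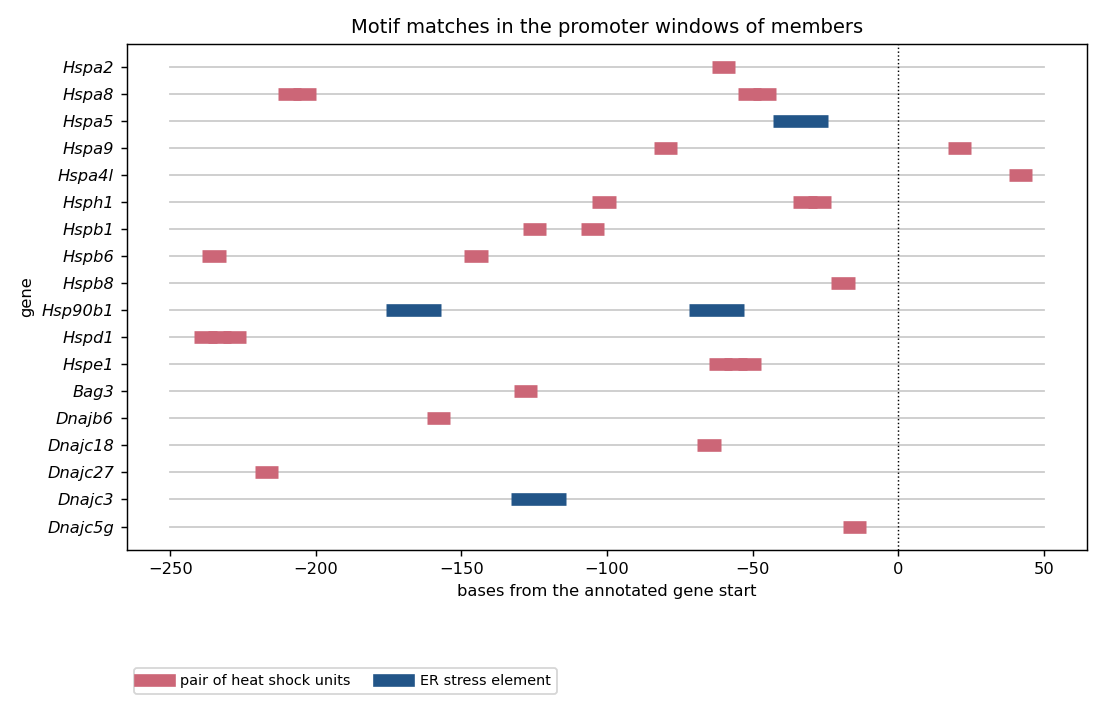
Motif matches in the promoter windows of the members that had any, by distance in bases from the annotated gene start (dotted line); red bars are pairs of heat shock units and blue bars the ER stress element. Touching red bars are overlapping pairs, which make up the runs in Hspa8, Hsph1, Hspd1 and Hspe1, and Hsp90b1 has the ER stress element at 2 places.

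Values are log2 signals, so a difference of 1 is a doubling, and levels of different genes are not compared because each has its own probes. The background line of an array is the 95th percentile of its negative control rows, which lay between 8.09 and 8.55. The mean over the arrays was above the mean line for 44 members and below it for the other 23. No size is given for the differences of those 23, except a least size where 1 group lay above its lines and the other below. Differences were tested with limma and called where the p adjusted by Benjamini-Hochberg over 23188 rows was under 0.05. Arrays are said not to overlap where both arrays of a group lay beyond both arrays of the other. The heart muscle markers Tnnt2, Tnni3, Pln and Mb were between 19.87 and the ceiling of the scale at 19.93 on all arrays, although the labels name cultured fibroblasts under RNA extraction. In whole tissue, fewer cells of a type and less RNA per cell cannot be told apart.

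No member passed the threshold in any of the 3 comparisons, which share groups and so are not independent. Between TAC and normal 0.254% of all rows were called, between TAC-R and TAC 0.431%, and between TAC-R and normal 0.0906%. At an unadjusted p under 0.05, limma gave 3 members between TAC and normal (10.3% of all rows), 11 between TAC-R and TAC (11.0% of all rows) and 7 between TAC-R and normal (10.7% of all rows). Higher and lower therefore describe positions of arrays and not tested changes. The clearest pattern by position, against the shares of named genes above the line, was between TAC-R and TAC. Of the 44 members above the line, 28 were higher on both TAC-R arrays without overlap (63.6%) and 1 was lower (2.27%). Among all 4473 named genes above the line, 25.0% were higher and 24.5% lower in this way. Between TAC-R and normal the member counts were the same, 28 higher and 1 lower. There, 31.5% of named genes above the line were higher and 15.6% lower.

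**Figure D2:**
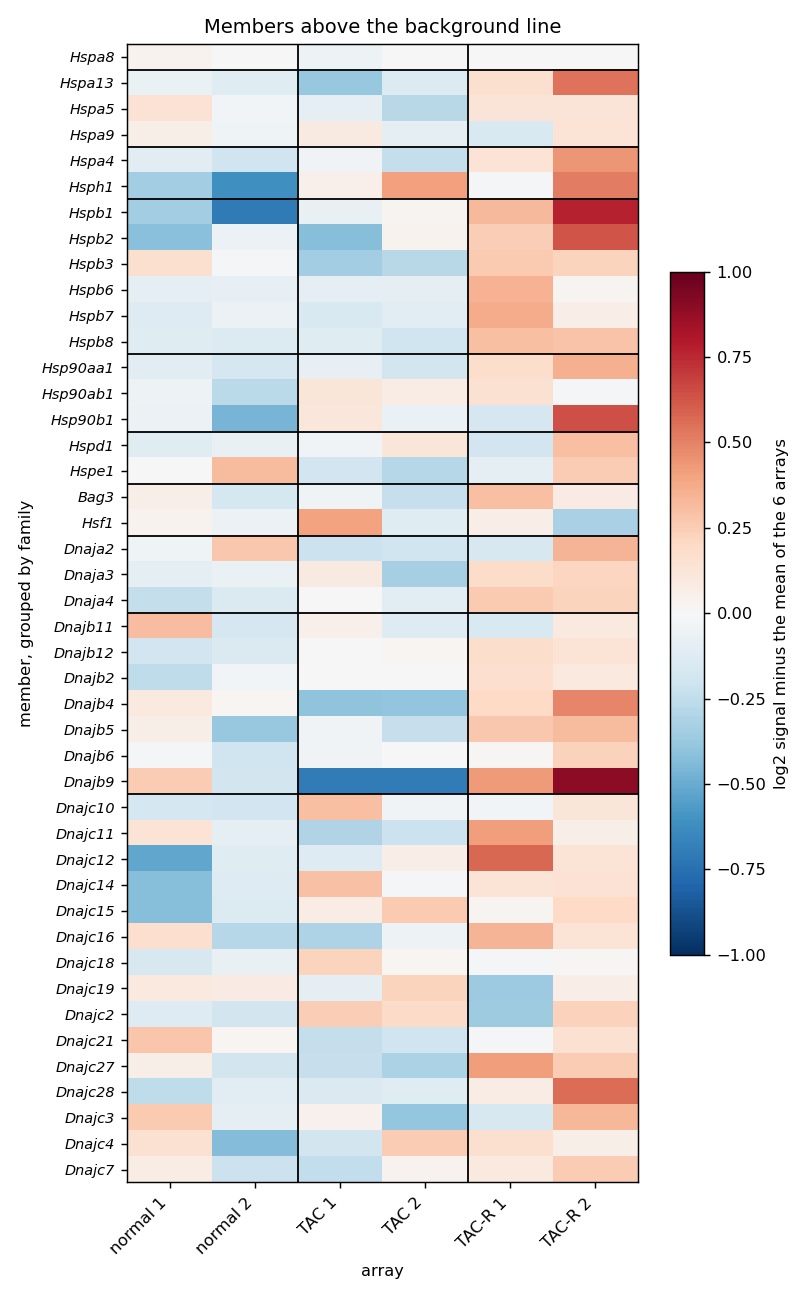
Log2 signal of the 44 members above the background line on each array, as the deviation from the member's mean over the 6 arrays; horizontal lines separate families and vertical lines the groups, and the colour scale ends at 1 unit either way. The TAC-R columns are mostly red, and Dnajb9 and Dnajb4 are blue on both TAC arrays.

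Small heat shock proteins were higher on TAC-R than on TAC arrays without overlap in all 7 members, 6 of them above the line with a median difference of 0.51 (range 0.29 to 0.63). In this way, 20.1% of all rows and 25.0% of named genes above the line were higher. The median difference of all named genes above the line was 0.01. Hspb1, which binds actin and damaged proteins, read 11.65 and 11.29 on the normal arrays, 11.92 and 12.02 on TAC and 12.32 and 12.77 on TAC-R. The groups of Hspb1 did not overlap at all and stood in that order. Its difference was 0.57 ± 0.25 (SE) between TAC-R and TAC (limma adjusted p = 0.443) and 1.08 ± 0.25 between TAC-R and normal (2.11-fold, limma adjusted p = 0.225). Hspb2, a partner of the muscle kinase Dmpk, read 9.90 and 10.26 on normal, 9.89 and 10.35 on TAC and 10.56 and 10.94 on TAC-R arrays. Normal and TAC arrays of Hspb2 interleaved, and both TAC-R arrays lay above them, by 0.63 ± 0.26 over TAC (limma adjusted p = 0.426). Hspb3, which forms complexes with Hspb2, read 9.66 and 9.48 on normal, 9.15 and 9.22 on TAC and 9.77 and 9.72 on TAC-R arrays. Here it was the TAC arrays that lay apart on the low side, by 0.56 ± 0.21 under TAC-R (limma adjusted p = 0.375), while TAC-R lay 0.17 ± 0.21 from normal.

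Hspb6, Hspb7 and Hspb8, all strongly expressed in muscle, differed between TAC and normal arrays by -0.02 ± 0.22, -0.04 ± 0.22 and -0.03 ± 0.20. Hspb6, which regulates muscle relaxation, read 17.99 and 18.00 on normal, 17.98 and 17.98 on TAC and 18.43 and 18.11 on TAC-R arrays. Hspb7, the cardiovascular member that binds sarcomeric filamin, read 18.28 and 18.35 on normal, 18.26 and 18.31 on TAC and 18.78 and 18.48 on TAC-R arrays. Hspb8, the partner of Bag3 in chaperone-assisted autophagy, read 14.76 and 14.75 on normal, 14.76 and 14.69 on TAC and 15.18 and 15.17 on TAC-R arrays. In each, the normal and TAC arrays interleaved or nearly met and both TAC-R arrays lay above all 4. TAC-R exceeded TAC by 0.29 ± 0.22 for Hspb6, 0.35 ± 0.22 for Hspb7 and 0.46 ± 0.20 for Hspb8 (limma adjusted p = 0.699, 0.626 and 0.459). Hspb9, a testis gene, was below the line on every array. Against normal, 6 of the 7 were higher on TAC-R arrays without overlap, all except Hspb9. In this way, 20.6% of all rows and 31.5% of named genes above the line were higher. Cryab, a major small heat shock protein of heart whose symbol is outside the rule, read between 19.19 and 19.44 on all arrays, close to the ceiling.

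**Figure D3:**
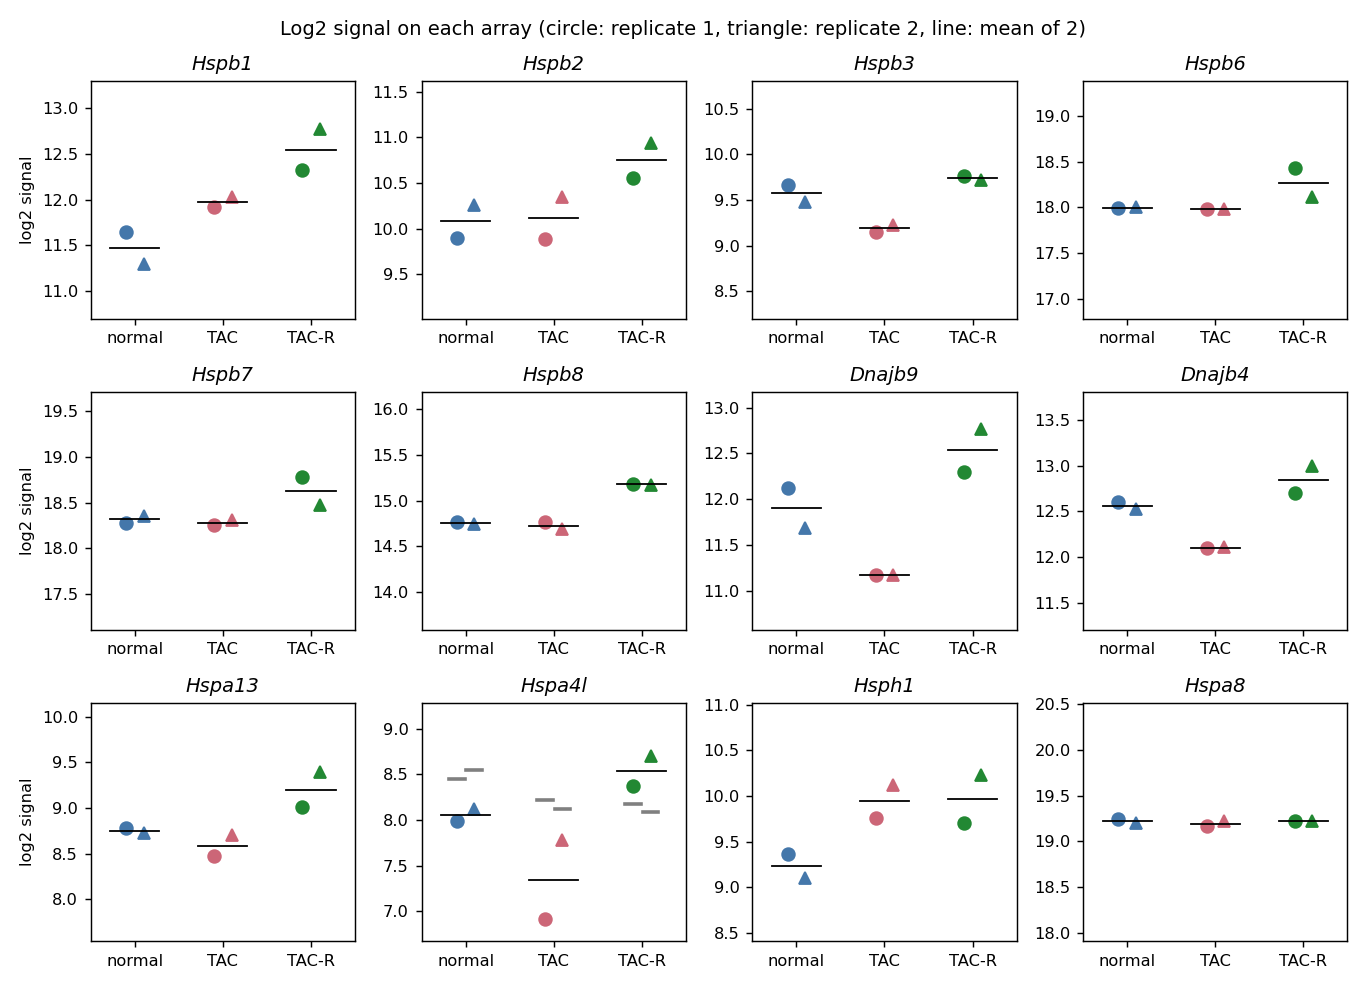
Log2 signal of 12 members on each array (circles, replicate 1; triangles, replicate 2; black lines, mean of the 2 arrays), with every panel spanning the same height; grey ticks in the Hspa4l panel mark the background line of each array. The 6 small heat shock proteins above the line have both TAC-R arrays above both TAC arrays, Dnajb9 and Dnajb4 are lowest on TAC, Hsph1 is lowest on normal, and Hspa8, whose highest array is 0.69 below the ceiling, overlaps in all groups.

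All of these small heat shock protein values are from arrays whose cell type markers also differed. The 6 small heat shock proteins above the line did not overlap between TAC-R and TAC, so dropping an array could not change a sign. Without TAC-R replicate 1 their median difference from TAC was 0.49, and without TAC-R replicate 2 it was 0.45. Against normal, their median was 0.37, and 0.29 and 0.45 with the same arrays left out. The atrial muscle list (8 measured) had a mean of 7.46 and 7.48 on TAC and 9.78 and 8.59 on TAC-R arrays. Its marker Myl7, the atrial myosin light chain, was 7.48 and 7.51 on TAC and 14.30 and 12.54 on TAC-R (limma adjusted p = 0.00315), and 4 of the 8 were higher on TAC-R than on TAC arrays without overlap. Dkk3 was lower (-0.63 ± 0.21), Tbx5 and Gja5 differed by -0.18 ± 0.22 and 0.03 ± 0.22, and Bmp10 was below the line on all arrays. Of the 7 small heat shock proteins, 5 were higher on TAC-R replicate 1 than on replicate 2, and Hspb1 and Hspb2 were lower. Fibroblast markers were lower on TAC-R than on TAC in 9 of 9 without overlap (mean 11.39 and 11.39 on TAC, 10.43 and 10.17 on TAC-R), with Col1a2 and Col3a1 called. Endothelial markers were lower in 9 of 9 (11.12 and 11.03, then 10.68 and 10.24) and smooth muscle and pericyte markers in 9 of 10 (10.65 and 10.54, then 10.13 and 9.75). Of all rows, 20.1% were higher and 20.4% lower on TAC-R than on TAC arrays in this way. The 9 general cardiomyocyte markers averaged 18.85 to 18.97 on every array, with 4 of them at or near the ceiling. Between TAC-R and TAC, 1 of the 9 was higher (Ryr2) and 1 lower without overlap. Ryr2, well below the ceiling, lay at -0.695 ± 0.22 for TAC against normal (limma adjusted p = 0.36). Its TAC-R arrays exceeded TAC by 0.486 ± 0.22 (limma adjusted p = 0.468). The part of these cell type markers in the chaperone differences was not tested.

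**Figure D4:**
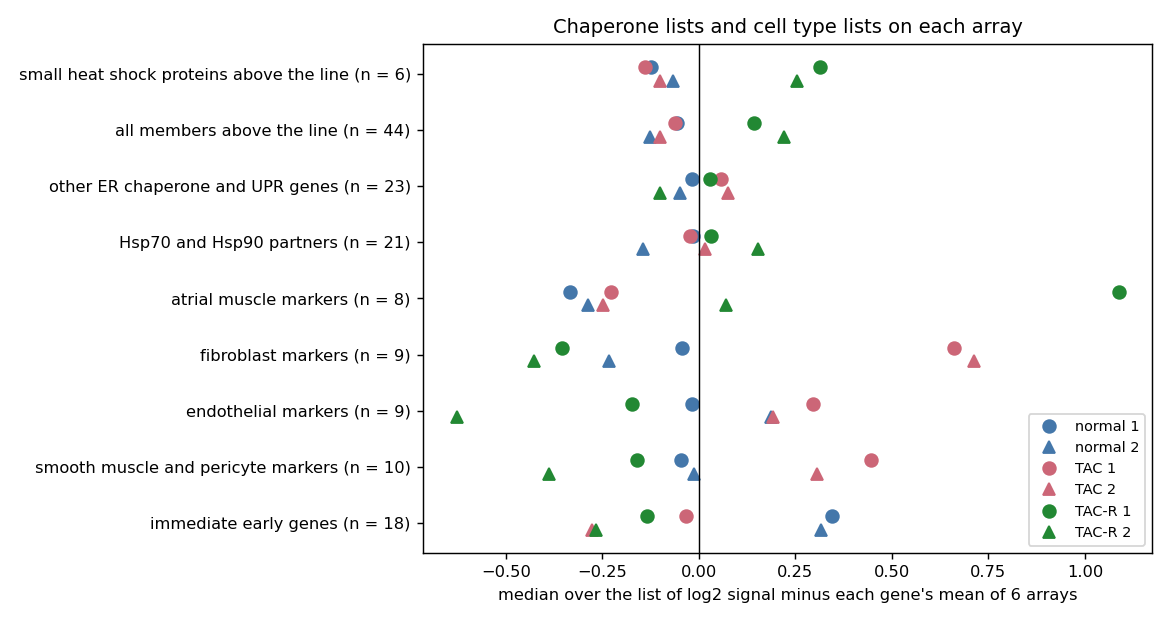
Median over each gene list of the log2 signal minus each gene's mean of the 6 arrays, for chaperone lists and for cell type lists (blue, normal; pink, TAC; green, TAC-R; circles, replicate 1; triangles, replicate 2). The small heat shock proteins above the background line lie highest on both TAC-R arrays, where the fibroblast, endothelial and smooth muscle markers lie lowest and the atrial markers highest.

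The J-domain co-chaperones included Dnajb9, the member above the line with the largest difference between TAC-R and TAC. Of the 39 Dnaja, Dnajb and Dnajc members, 18 were higher (46.2%) and 6 lower (15.4%) on TAC-R than on TAC arrays without overlap, against 20.1% and 20.4% of all rows. Dnajb9, an ER co-chaperone of Hspa5 that feeds back on the UPR sensor Ern1, read 12.12 and 11.68 on normal, 11.17 and 11.17 on TAC and 12.30 and 12.77 on TAC-R arrays. The TAC arrays were the lowest and the TAC-R arrays the highest, with no overlap between any 2 groups. TAC-R exceeded TAC by 1.36 ± 0.25 (2.56-fold, limma adjusted p = 0.0783), and TAC lay at -0.73 ± 0.25 against normal (limma adjusted p = 0.398). Dnajb9 passed the threshold between TAC-R and TAC in 3 of 14 alternative analyses, with limma adjusted p from 0.00401 to 0.05 there and from 0.0545 to 0.356 in the others. Dnajb4, a cytosolic partner of Hsp70 in muscle, read 12.60 and 12.52 on normal, 12.10 and 12.11 on TAC and 12.70 and 13.00 on TAC-R arrays. Its order was the same, with TAC-R above TAC by 0.74 ± 0.22 (1.67-fold, limma adjusted p = 0.241) and TAC at -0.46 ± 0.22 against normal. An intensity-dependent prior gave Dnajb4 an adjusted p of 0.0387 in limma.

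Among the other Dnajb members, Dnajb5, Dnajb12, Dnajb2 and Dnajb6 were also higher on both TAC-R arrays than on both TAC arrays, by 0.42, 0.15, 0.13 and 0.14. Dnajb5 is a cytosolic J-domain protein, Dnajb12 anchors Hsp70 at the ER membrane, and Dnajb2 and Dnajb6 keep aggregating proteins soluble. Dnajb11, an ER-lumen partner of Hspa5, differed by only 0.01 ± 0.24. Dnajb14, Dnajb7 and Dnajb8 were lower on the TAC-R arrays but below the line, as were Dnajb3 and Dnajb13. The Dnaja family, which assists Hsp70 in the cytosol (Dnaja2, Dnaja4) and mitochondria (Dnaja3), had 3 of 3 members above TAC by 0.30, 0.30 and 0.32. None of the 3 overlapped between TAC-R and TAC, and 25.0% of named genes above the line were higher in this way. Dnaja4 read 13.41 and 13.50 on normal, 13.65 and 13.53 on TAC and 13.91 and 13.87 on TAC-R arrays, with TAC-R above both other groups. Dnaja2 overlapped between TAC-R and normal arrays.

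Dnajc, the most varied J-domain class, was mixed. Between TAC-R and TAC, 9 of 24 were higher without overlap (37.5%, against 20.1% of all rows) and 3 lower (12.5%, against 20.4%). The 15 above the line had a median difference of 0.26, with 7 higher (46.7%) and 1 lower (6.67%). Of named genes above the line, 25.0% were higher and 24.5% lower. Dnajc27, a Rab-like GTPase with a J domain, read 10.06 and 9.82 on normal, 9.78 and 9.69 on TAC and 10.43 and 10.26 on TAC-R arrays. Its TAC-R arrays lay above the other 4, by 0.61 ± 0.22 over TAC (limma adjusted p = 0.342). Dnajc11, which helps to shape mitochondrial cristae, was above TAC by 0.50 ± 0.23 (limma adjusted p = 0.472), and Dnajc28, Dnajc16, Dnajc12, Dnajc21 and Dnajc7 by 0.45, 0.42, 0.38, 0.29 and 0.28. Dnajc12, a co-chaperone of aromatic amino acid hydroxylases, read 7.78 and 8.18 on normal, both below the line, 8.18 and 8.37 on TAC and 8.88 and 8.44 on TAC-R arrays. The mean of the TAC-R arrays was at least 1.12-fold above the mean background line of the normal arrays (limma adjusted p = 0.404), although TAC-R replicate 2 alone lay below both normal lines. Dnajc5g and Dnajc25 were also higher on TAC-R arrays, and Dnajc5 and Dnajc5b lower, but their row means were below the line.

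Several Dnajc members did not share that position. Dnajc18 was the 1 member above the line that was lower on TAC-R than on TAC arrays without overlap, by -0.12 ± 0.21. Dnajc19, a mitochondrial inner membrane protein whose loss causes a dilated cardiomyopathy, read 13.60 and 13.58 on normal, 13.41 and 13.72 on TAC and 13.14 and 13.57 on TAC-R arrays. It was the 1 member above the line that was lower on TAC-R than on normal arrays without overlap, and replicate 1 of TAC-R carried most of the difference of -0.24 ± 0.24. Dnajc3, an ER co-chaperone with the ER stress element in its promoter, differed by 0.26 ± 0.27 between TAC-R and TAC, with overlapping arrays. Dnajc10, an ER disulfide reductase, Dnajc14, Dnajc15, Dnajc2 and Dnajc4 overlapped between TAC-R and TAC. Between TAC and normal, Dnajc15, Dnajc14, Dnajc2 and Dnajc10 were the Dnajc members above the line with the largest higher values, by 0.45, 0.41, 0.37 and 0.32, and Dnajc21 the largest lower value, by -0.36 ± 0.22. Dnajc9, Dnajc17, Dnajc22, Dnajc24 and Dnajc30 completed the class with row means below the line.

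**Figure D5:**
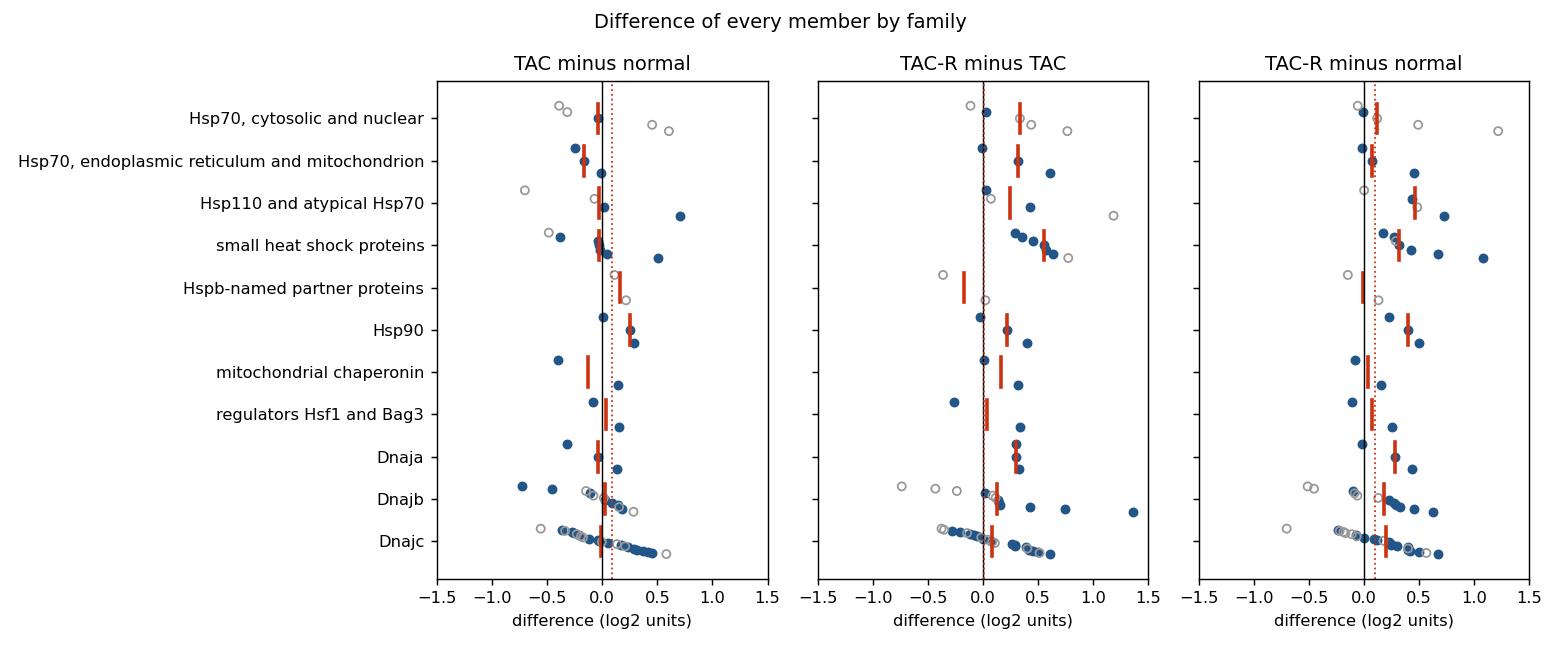
Difference in log2 units of every member by family in the 3 comparisons (filled points, row mean above the background line; open points, below; red ticks, family medians; dotted red line, median of all named genes above the line). In the middle panel all 7 small heat shock proteins and all 3 Dnaja members lie to the right of 0, and Dnajb9 is the rightmost filled point.

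Among the Hsp70 proteins, Hspa8 and Hspa9 had overlapping arrays in the 3 groups, whereas the TAC-R arrays of Hspa13 and Hspa4l lay above all others. Hspa8, the main cytosolic Hsp70, read 19.24 and 19.20 on normal, 19.16 and 19.22 on TAC and 19.22 and 19.22 on TAC-R arrays. Hspa9, the mitochondrial Hsp70, read 18.11 and 18.00 on normal, 18.14 and 17.95 on TAC and 17.90 and 18.18 on TAC-R arrays. In both genes every pair of groups overlapped, but the highest array of Hspa8 lay only 0.69 below the ceiling, which limits what its signal can show. Hspa5, the ER Hsp70 also called BiP, read 17.26 and 17.08 on normal, 17.01 and 16.83 on TAC and 17.24 and 17.23 on TAC-R arrays. The TAC arrays of Hspa5 were the lowest, by -0.25 ± 0.21 against normal and with TAC-R higher by 0.32 ± 0.21 (limma adjusted p = 0.716 and 0.649). Hspa13, a small ER-associated Hsp70, read 8.78 and 8.72 on normal, 8.47 and 8.71 on TAC and 9.01 and 9.39 on TAC-R arrays. Both TAC-R arrays were highest, by 0.61 ± 0.23 over TAC (1.53-fold, limma adjusted p = 0.378). The normal and TAC arrays of Hspa13 lay close above their background lines, which limits what the fold can show.

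The stress-inducible Hspa1a was below the line on all 6 arrays, at 5.04 and 4.87 on normal, 5.89 and 5.23 on TAC and 5.87 and 5.02 on TAC-R. Its near-identical copy Hspa1b can share its probes, so the row is uncertain. Hspa1l, a testis Hsp70, read 5.76 and 5.64 on normal, 6.13 and 6.18 on TAC and 7.35 and 6.48 on TAC-R arrays, with no overlap between groups but below the line throughout. Its difference therefore has no measured size (limma adjusted p = 0.242 between TAC-R and normal). Hspa2 and Hspa14 were also below the line. Of the Hsp110 proteins, which exchange the nucleotide of Hsp70, Hspa4 was above TAC and normal on both TAC-R arrays, by 0.42 ± 0.22 and 0.44 ± 0.22. Hspa4l read 7.99 and 8.12 on normal and 6.92 and 7.78 on TAC arrays, all below the line, and 8.37 and 8.70 on TAC-R arrays, both above it. The mean of the TAC-R arrays was at least 1.29-fold above the mean background line of TAC (limma adjusted p = 0.185). Hspa12a, an atypical relative, was below the line.

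Hsph1, the Hsp110 gene with a run of heat shock units, was higher on the TAC and TAC-R arrays than on both normal arrays. Its arrays read 9.37 and 9.10 on normal, 9.76 and 10.12 on TAC and 9.70 and 10.23 on TAC-R. TAC and TAC-R arrays interleaved, and both pairs lay above normal, by 0.71 ± 0.26 for TAC (1.63-fold, limma adjusted p = 0.413) and 0.73 ± 0.26 for TAC-R (1.66-fold, limma adjusted p = 0.387). TAC-R differed from TAC by 0.02 ± 0.26. Between TAC and normal as a whole, 14 of 67 members were higher without overlap (20.9%, against 21.9% of all rows) and 17 lower (25.4%, against 21.3%). Above the line the counts were 12 higher (27.3%, against 33.8% of named genes above the line) and 11 lower (25.0%, against 16.6%). The median difference of the 44 members above the line was -0.002, against 0.09 over named genes above the line.

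Among the Hsp90 proteins and the mitochondrial chaperonin, Hsp90aa1 alone had both TAC-R arrays above all 4 others. Hsp90aa1, the inducible cytosolic Hsp90, read 14.32 and 14.25 on normal, 14.34 and 14.24 on TAC and 14.59 and 14.78 on TAC-R arrays. Its TAC-R arrays lay above the other 4, by 0.40 ± 0.21 over each group (limma adjusted p = 0.543 and 0.533). Hsp90ab1, the constitutive form, read 16.75 and 16.54 on normal, 16.93 and 16.88 on TAC and 16.96 and 16.79 on TAC-R arrays, with TAC and TAC-R interleaved above normal. Hsp90b1, the ER form, read 13.61 and 13.21 on normal, 13.79 and 13.60 on TAC and 13.51 and 14.31 on TAC-R arrays, so the TAC-R pair itself spanned more than the group means did. Hspd1 read 15.89 and 15.94 on normal, 15.97 and 16.13 on TAC and 15.82 and 16.31 on TAC-R arrays, again with the TAC-R pair widest. Hspe1, which shares its promoter letters with Hspd1, read 14.80 and 15.12 on normal, 14.61 and 14.52 on TAC and 14.70 and 15.05 on TAC-R arrays, lowest on TAC by -0.40 ± 0.23 against normal (limma adjusted p = 0.583).

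Hsf1, the transcription factor of the heat shock response, read 8.81 and 8.71 on normal, 9.17 and 8.65 on TAC and 8.84 and 8.45 on TAC-R arrays, with all groups overlapping. Bag3, the co-chaperone that links Hsp70 to Hspb8, read 14.86 and 14.62 on normal, 14.75 and 14.57 on TAC and 15.10 and 14.88 on TAC-R arrays. Both TAC-R arrays of Bag3 were the highest, by 0.33 ± 0.22 over TAC (limma adjusted p = 0.651). Hspbp1, which exchanges the nucleotide of Hsp70, and Hspbap1, which binds small heat shock proteins, were below the line. Members were also split by their promoters. Between TAC-R and TAC, the 12 members above the line with a pair of heat shock units had a median difference of 0.21, and 7 of them were higher without overlap. The 23 members above the line with a promoter and no pair had a median of 0.29, with 15 higher. Among all named genes above the line 25.0% were higher in this way. The 4 genes with a run of 3 units had a median of 0.03, and the 3 with the ER stress element 0.26. Both sets are too short to read. In the first, Hspd1 and Hspe1 share their promoter letters and Hspa8 lay near the ceiling.

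Between TAC-R and normal, 31 of 67 members were higher without overlap (46.3%, against 20.6% of all rows) and 4 lower (5.97%, against 20.3%). Above the line, 28 of 44 were higher (63.6%, against 31.5% of named genes above the line) and 1 lower (2.27%, against 15.6%). The median of the 44 was 0.27, against 0.10 over named genes above the line. Over all 67 members it was 0.23, and 0.13 with normal replicate 2 left out. Between TAC-R and TAC the medians were 0.29 over the 44 and 0.21 over all 67, and 36 of the 44 members above the line had positive differences (32 to 40 with 1 TAC or TAC-R array left out). The median over the 44 was 0.29 without TAC replicate 1 and 0.25 without TAC replicate 2. It was 0.30 without TAC-R replicate 1 and 0.21 without TAC-R replicate 2.

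Other chaperone genes outside the symbol rule gave no calls in any comparison. Between TAC-R and TAC, the shares without overlap to read them against are 20.1% higher and 20.4% lower of all rows. Of 23 measured ER chaperone and UPR genes, 4 were higher (17.4%) and 10 lower (43.5%), with a median of -0.14. Ddit3, the UPR transcription factor also called Chop, and Herpud1, a part of ER-associated degradation, were among the 4, by 0.78 ± 0.24 and 0.59 ± 0.23 (limma adjusted p = 0.261 and 0.384). Herpud1 read 14.23 and 13.95 on normal, 13.33 and 13.46 on TAC and 14.13 and 13.85 on TAC-R arrays, lowest on TAC as Dnajb9 was. Serpinh1, the collagen chaperone, lay at -0.48 ± 0.22 and Ppib, a prolyl isomerase that also folds collagen, at -0.43 ± 0.23 between TAC-R and TAC. Of 21 measured partners of Hsp70 and Hsp90, 1 of them the member Hspbp1, 5 were higher (23.8%) and 3 lower (14.3%). Their median was 0.10. The row means of 18 partners were above the line, where 25.0% of named genes were higher and 24.5% lower. Fkbp5, an Hsp90 co-chaperone of the glucocorticoid receptor, was above TAC by 0.64 ± 0.25 (limma adjusted p = 0.391), and St13, an Hsp70 partner, was above normal by 0.54 ± 0.21 (limma adjusted p = 0.430).

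In the cytosolic chaperonin and prefoldin list, 5 of 12 were higher (41.7%) and 1 lower (8.33%) on TAC-R than on TAC arrays without overlap, with a median of 0.18. All 12 were above the line, where 25.0% of named genes were higher and 24.5% lower. Pfdn6, a prefoldin subunit, read 11.10 and 11.24 on normal, 9.94 and 10.57 on TAC and 10.29 and 10.60 on TAC-R arrays, the widest distance from normal in these lists at -0.91 ± 0.27 for TAC (limma adjusted p = 0.323). Mitochondrial proteostasis genes were 2 higher and 2 lower of 11 (18.2% each, against 20.1% and 20.4% of all rows), with Grpel1, the nucleotide exchange factor of Hspa9, above TAC by 0.60 ± 0.25 (limma adjusted p = 0.423). The Hsf relatives and regulators were 0 higher and 1 lower of 6, and the other genes that respond to Hsf1 were 3 higher and 1 lower of 6. Lists of 6 genes are too short to read against those shares.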

How the data were processed

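The table held log2 signals, 1 column per array, which the authors made, per the labels, by robust multi-array averaging of core exons in Expression Console. Its version is not given in the sources used here. No further scaling was applied. Such averaging makes the arrays alike in distribution, so a shift of all genes one way cannot be seen. Of 24834 rows, 1646 control rows were left out and 23188 were tested, 15049 of them with 1 symbol from the platform annotation. All 67 members matched RefSeq genes by gene ID, and no symbol changed. limma 3.58.1 in R 4.3.3 (lmFit, eBayes) fitted 1 mean per group to all 6 arrays, with 3 residual degrees of freedom. An exact permutation test of 2 arrays against 2 cannot go below p = 0.33. The number of arrays limits the precision. The fit was tested on simulated data.

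Members and lists were chosen with earlier results of these data known, so no list is independent support. Genes named with values were those past the threshold, in each comparison up to 10 with the largest difference among members with unadjusted p under 0.05, no overlap and a group above the line, a set of family heads, the brightest and dimmest of each family, and the leading genes of the lists. Some further members were named to account for all 67, with values seen. The labels do not say whether equal replicate numbers pair samples, and the main fit did not pair them. Alternatives changed the prior, rows, arrays, scaling, gene summary or block.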

Additional observations from a re-analysis of the deposited data

How the results depend on the processing

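With limma, 0 members passed the threshold between TAC and normal under all 14 alternatives. Between TAC-R and TAC the count was 2 with an intensity-dependent prior (Dnajb9 and Dnajb4), 1 with rows below the median left out and 1 with arrays centred on their medians (Dnajb9 in both), and 0 under the others. Between TAC-R and normal it was 1 with the intensity-dependent prior (Hspb1, adjusted p = 0.0248) and 0 under the others. With the replicate block the counts were 0, 0 and 0. The labels do not say whether equal replicate numbers mark a shared animal or day. The deviations of replicate 1 correlated between groups at 0.012, -0.009 and -0.013, which cannot settle it. The median over members ranged from -0.030 to 0.036 between TAC and normal with 1 array left out, from 0.20 to 0.25 between TAC-R and TAC, and from 0.13 to 0.26 between TAC-R and normal. With rows below the median left out it was 0.29 between TAC-R and TAC and 0.26 between TAC-R and normal, and 0.28 in the latter with arrays centred. Of 1047 values of 25 named members under alternatives, 37 had the other sign, all from differences of 0.21 or less. Most of the 1047 could not change sign. Only centring the arrays, or leaving out an array of a compared group, alters a difference. Rows near the background line or the ceiling limit what the signals can show.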

Other observations

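The 2 TAC-R arrays differed from each other more than the TAC arrays did. Over the 44 members above the line the median absolute gap between the arrays of a group was 0.24 in TAC-R, 0.17 in TAC and 0.20 in normal. TAC-R replicate 2 was the higher array for 27 of these members and replicate 1 for 16. Over all 4473 named genes above the line the TAC-R gap was 0.23, with replicate 2 higher for 2369 and replicate 1 for 2091.

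The red cell markers were highest on the TAC arrays, where their mean was 13.62 and 13.50, against 11.39 and 11.63 on normal and 12.16 and 12.38 on TAC-R arrays. Immediate early genes, which respond within minutes to handling, had a mean of 7.61 and 7.65 on normal, 7.10 and 7.03 on TAC and 6.92 and 6.67 on TAC-R arrays. Egr1, the early growth response factor, read 13.62 and 14.00 on normal, 11.01 and 10.75 on TAC and 9.98 and 9.73 on TAC-R arrays, and was called lower than normal in TAC and in TAC-R (limma adjusted p = 0.00341 and 0.00158). The part of these lists in the chaperone values was not tested.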
